A study of Mus musculus with 96 samples.

Results

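The genes described here encode the proteasome, with its activators, its inhibitor and the factors that assemble it. Members were the rows of the TPM table whose symbol begins with Psma to Psmg followed by a number, without Psmb8 and Psmb9, and with TPM (a value per gene length, scaled to the same total in every cell) above 0 in at least 5 cells. Of 24057 genes in the table, 48 matched by symbol. Psma8 and Psmb11 were at 0 in every cell, which left 46 members. All 46 passed the filter on low values of the expression test, and 45 passed that of the variation test (Psme2b did not). Beyond the symbols, the members are grouped here by known role: 7 alpha and 8 beta subunits of the 20S core, 6 ATPases of the 19S base, 11 non-ATPase subunits of the 19S base and lid, 3 chaperones of the base, 4 assembly factors of the core, 5 activator genes and 1 inhibitor. Psmc3ip, a protein of meiotic recombination named for binding Psmc3, is no subunit and is given apart.

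Single-cell RNA-seq had been made from EL4 cells, a mouse T-lymphoma line (C57BL/6 in the labels, C57BL/6 N in the methods of the study), to ask how loss of the architectural factor CTCF alters expression and its variation between cells. All cells carried an shRNA and GFP: the WT cultures shLuc #1 and shLuc #2 an shRNA against luciferase, the CTCF-KD cultures shCTCF #1 and shCTCF #2 one against Ctcf. Cultures numbered 1 formed experiment 1 and cultures numbered 2 formed experiment 2. No allele of Ctcf was deleted, the sources used here do not settle whether both CTCF-KD cultures carried the same hairpin, and each culture was captured on its own circuit, so that circuit, culture and condition cannot be told apart within either experiment. Cells of a culture share their source, and the culture was therefore the replicate, with 2 per condition.

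The 20S proteasome is a barrel of alpha and beta rings whose beta subunits cut proteins, and the 19S particle caps it, binds ubiquitin chains, removes them and threads the substrate inward through its ring of ATPases. Eukaryotic cells are known to make the subunits in a coordinated way and to raise them together when proteolysis falls short. In lymphocytes the proteasome also supplies peptides for MHC class I and controls NF-kappaB and the cell cycle, and interferon exchanges the catalytic beta subunits for immunoproteasome forms.

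After 1 cell with fewer than 3000 detected genes was left out, 24 and 23 cells remained in shLuc #1 and shLuc #2 and 24 each in shCTCF #1 and shCTCF #2. In this order, which is kept wherever 4 values are given, the medians were 247586, 230477, 234260 and 131098 recovered reads per cell. Genes detected per cell had medians of 4771, 4635, 6172.5 and 5656, and of 4178.5, 3973, 5234 and 5216 after cells were thinned to 80000 reads. One shCTCF #2 cell was too shallow to thin, so that thinned values of shCTCF #2 are over 23 cells. More genes were therefore detected in CTCF-KD cells at equal depth, and the part of this in the results below was not tested. That cell, with 41591 reads and 3150 genes, stood apart, with reads for 6 of the 15 core subunits and 12 of the 17 subunits of the 19S particle. T-cell markers were high in every culture (7 of the 8 listed were in the table, and their summed mean TPM ranged from 5810 to 8310), while the 11 of 12 listed B-cell, myeloid, erythroid and fibroblast markers in the table summed to between 0.178 and 6.96, with 7 of them at 0 in every culture.

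Ctcf had mean TPM of 60.3 and 37.1 in the WT cultures and of 16 and 44.9 in the CTCF-KD cultures. These values rest on 705, 394, 177 and 265 reads in 19, 17, 16 and 20 cells. Mean TPM of Ctcf was lower in the first CTCF-KD culture than in its control and not in the second. The ranges of the conditions overlapped (limma, log2 difference -0.79 ± 0.66 standard error, adjusted p = 0.815). Every direction given for CTCF-KD therefore rests, for the second experiment, on the culture labelled shCTCF #2. The study also checked the knockdown by qPCR and Western blot, which are not part of these data.

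The sequences before the start of 4 subunit genes are shown because they hold motifs counted below and belong to subunits whose values follow. They are from RefSeq (GRCm38.p6), on the strand of the gene and upstream of a RefSeq start of it. Capitals mark CCGGAAGT, the core bound by ETS-family factors (in Psmc2 on the other strand, so that its reverse complement stands in the line), in the genes Psmd6 (chr14:14120973-14121040, minus strand) and Psmc2 (chr5:21785140-21785207, plus strand). They mark TGACNNNGC, the core of the antioxidant response element, in Psmb5 (chr14:54618024-54618092, minus strand) and Psmb6 (chr11:70525298-70525356, plus strand). Psmc2 also has the ETS core, on the other strand, before another RefSeq start (chr5:21786672-21786739, plus strand), which is not printed.
Psmd6: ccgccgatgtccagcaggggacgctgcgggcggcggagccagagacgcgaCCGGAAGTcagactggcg
Psmc2: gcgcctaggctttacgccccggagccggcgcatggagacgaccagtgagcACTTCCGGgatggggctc
Psmb5: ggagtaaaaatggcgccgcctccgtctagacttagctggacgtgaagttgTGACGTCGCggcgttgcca
Psmb6: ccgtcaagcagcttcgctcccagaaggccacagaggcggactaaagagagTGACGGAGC

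Promoter windows of 300 bases (250 before and 50 after the start) were given for 39 of the 46 members, 42 windows in all. Searched on both strands, the ETS core was in 10 windows of 9 members (Psma6, Psmc1, Psmc2, Psmd6, Psmd12, Psmd13, Psme3, Psme4 and Psmg3), which is 23.8% of the member windows against 3.89% of all 32851 windows and 8.36% of the 11568 windows of genes tested for expression. TGACNNNGC was in 14.3% of the member windows and in 12.4% of all (14.4% for genes tested), CCAAT in 31% and 37.4% (37.8%), and the GC box GGGCGG in 54.8% and 35.7% (60.8%). Matches of different motifs were counted apart, also where they overlap. The motifs were chosen after promoters had been looked at, and a match is a description of letters and not a site of binding.

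Most proteasome genes were expressed at a high level, with a median over the members of 264 mean TPM against 17.2 for all 11980 genes tested. Mean TPM was higher in both CTCF-KD cultures than in both WT cultures for 22 of 46 members (47.8%), against 19.9% of all genes tested. It was lower in both for 2 members, Psmb1 and Psmd11 (4.35%), against 16.9% of all genes, and the cultures overlapped for the other 22. Among the 1823 genes with a mean TPM of at least 100, a comparison chosen after the data were seen, 26% were above and 17.3% below in this sense, with 19 and 2 of the 35 members at that level. The median log2 difference in mean TPM was 0.43 over the members (0.47 in experiment 1 and 0.44 in experiment 2) against 0.04 over all genes tested and 0.09 over those with a mean TPM of at least 100.

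**Figure D1:**
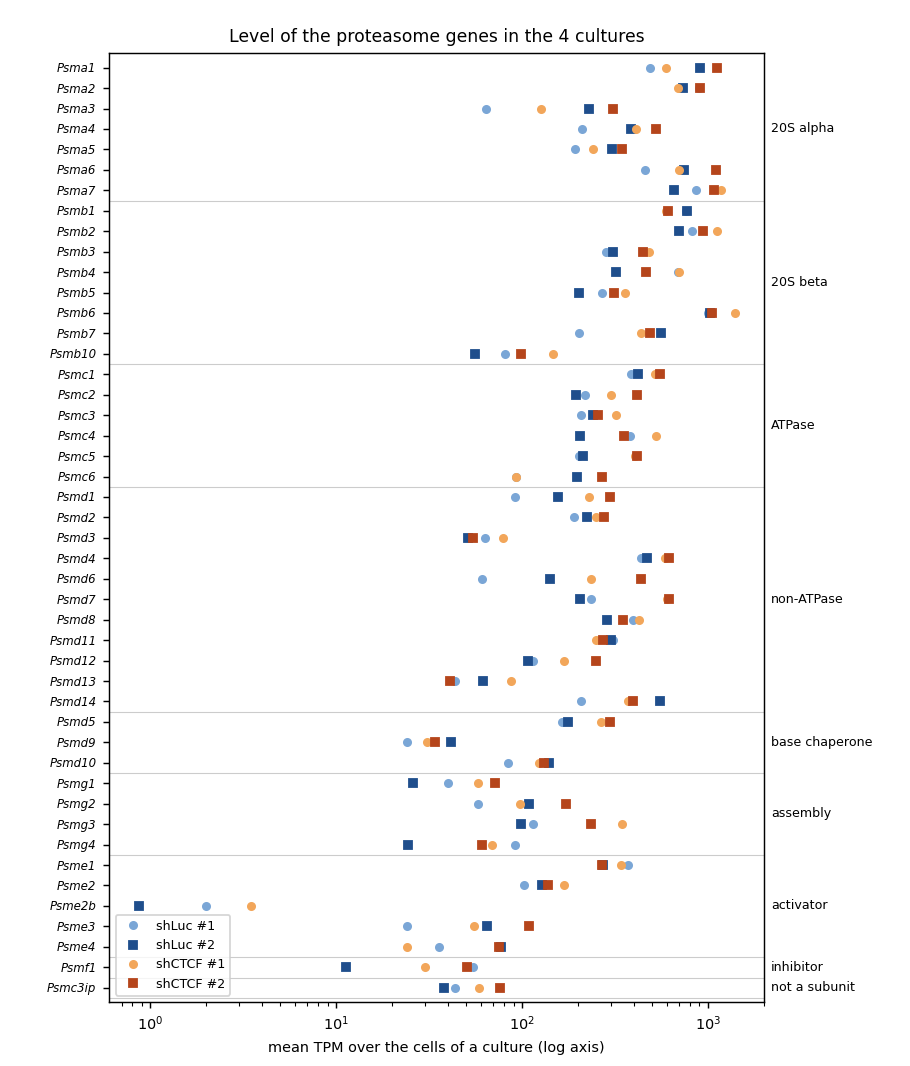
Mean TPM of the 46 proteasome genes (log axis) in the 4 cultures, grouped by role. Circles are experiment 1 and squares experiment 2, blue WT and orange CTCF-KD. For 22 members both CTCF-KD points lie right of both WT points, and Psme2b, at 0 in shCTCF #2, has no point there.

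By limma on log2(mean TPM + 1) of the 4 cultures, 0 members and 0 of all 11980 genes passed an adjusted p of 0.05 (percent called 0 for higher and 0 for lower), and the smallest adjusted p of a member was 0.585. At an unadjusted p under 0.05, 6 members were higher (13% of members against 4.79% of all genes) and 0 were lower (2.82% of all genes). These 6 were Psmd7, Psmg3, Psmd6, Psmc5, Psmd1 and Psmd12. With the experiment as a block, which pairs cultures of the same number, 0 members passed the adjusted threshold, 20 (43.5%) were higher at an unadjusted p under 0.05 against 7.66% of all genes, and 0 were lower against 5.12%. On the culture mean of log2(TPM + 1) of single cells, a scale that also counts the share of cells with reads, 1 member was called higher, Psmg3 (0.367% of all genes were called), and 0 were called lower (0.0167% of all genes).

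The alpha subunits form the outer rings of the core and gate the entry. Psma7, with the highest limma statistic and the highest mean of the class, had mean TPM of 865 and 658 in shLuc #1 and shLuc #2 and of 1175 and 1082 in shCTCF #1 and shCTCF #2. Both CTCF-KD cultures were above both WT cultures (log2 difference 0.58 ± 0.30, adjusted p = 0.709). Psma2, with the lowest statistic, had 894, 738, 693 and 906 in the same order, so that the conditions overlapped and the experiments went in opposite directions. The least abundant, Psma3, had 64.4, 231, 126 and 309, with the second experiment above the first in either condition. Over the 7 alpha genes the median log2 difference was 0.58, and 2 (Psma4 and Psma7) were above in both CTCF-KD cultures (19.9% of all genes tested).

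Among the beta subunits, the catalytic ones are Psmb5 (chymotrypsin-like), Psmb6 (caspase-like) and Psmb7 (trypsin-like), and Psmb10 replaces Psmb7 in the immunoproteasome. Psmb5 had mean TPM of 268, 203, 358 and 312, both CTCF-KD cultures being above both WT cultures (log2 difference 0.51 ± 0.32, adjusted p = 0.774). Psmb6, the most abundant member of all, had 1008, 1022, 1394 and 1048. Its levels did not overlap, but in experiment 2 the log2 difference was 0.04, and on the mean of log2(TPM + 1) its difference over the 4 cultures was 0.54 as such and -0.17 after adjustment for genes detected. Psmb7 had 203, 557, 439 and 488, with log2 differences of 1.11 in experiment 1 and -0.19 in experiment 2. Psmb10 had 81, 56.1, 147 and 99.3, again without overlap, and a log2 difference of 0.83 ± 0.42 (adjusted p = 0.708) that was nearly equal in both experiments (0.85 and 0.81).

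Psmb3, a structural subunit with the highest statistic of the class, had 285, 309.8, 482 and 446, a log2 difference of 0.64 ± 0.29 (adjusted p = 0.669). Psmb1, also structural, went the other way, with 765, 770.5, 595 and 612, so that both CTCF-KD cultures lay below both WT cultures (-0.35 ± 0.28, adjusted p = 0.802). The 4 values of Psmb1 lay closer to each other within a condition than the conditions did, yet the adjusted p did not pass. The standard error of limma draws on the spread of other genes as well as on that of these values. In the beta class, 5 of 8 were above (19.9% of all genes tested) and 1 below (16.9%).

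The 6 ATPases form the motor ring of the base. Psmc5 had mean TPM of 204 and 213 in the WT cultures and of 407 and 415 in the CTCF-KD cultures, so that values within a condition nearly coincided and the conditions did not overlap. Its level was 2.0 times that of the control in experiment 1 and 1.95 times in experiment 2 (log2 difference 0.98 ± 0.29, unadjusted p = 0.0142, adjusted p = 0.585). Reads of Psmc5 were found in 17 of 24, 17 of 23, 24 of 24 and 23 of 24 cells. The most abundant ATPase, Psmc1, had 387, 424, 517 and 552, without overlap (0.40 ± 0.28, adjusted p = 0.788). Psmc6, the least abundant, had 93.2, 198, 92.7 and 271, and overlapped, with a log2 difference of -0.01 in experiment 1 and 0.45 in experiment 2. Psmc2, of which a promoter stretch is printed above, had 218, 196, 302 and 416, without overlap (0.77 ± 0.33, adjusted p = 0.656). Over the class, 4 of 6 were above (19.9% of all genes tested), none was below (16.9%), and the median log2 difference was 0.51.

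The non-ATPase subunits of the 19S particle held the largest differences among the members. Psmd7, the lid subunit that pairs with the deubiquitinase Psmd14, had mean TPM of 234.5 and 206 in shLuc #1 and shLuc #2 and of 606 and 619.9 in shCTCF #1 and shCTCF #2. It was 2.58 times the control in experiment 1 and 3.01 times in experiment 2 (log2 difference 1.48 ± 0.29, unadjusted p = 0.00182, adjusted p = 0.585). Its partner Psmd14, named after its values were seen, had 209, 552, 370.0 and 393 and overlapped, with log2 differences of 0.82 in experiment 1 and -0.49 in experiment 2.

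Psmd6, another lid subunit, had the largest log2 difference of all members over the 4 cultures, 1.78 ± 0.52 (unadjusted p = 0.0128, adjusted p = 0.585), from mean TPM of 60.5 and 141 in WT to 236 and 434 in CTCF-KD. It was 3.89 times the control in experiment 1 and 3.07 times in experiment 2. Without shLuc #1 the log2 difference of Psmd6 was 1.17, less than that of Psmd7 (1.57), and without shLuc #2 it was 2.38. Psmd6 was found in 15 of 24 and 16 of 23 WT cells and in 24 of 24 cells of each CTCF-KD culture. Psmd1, a large scaffold subunit of the base, had 91.5, 157, 229 and 298, without overlap (1.12 ± 0.40, unadjusted p = 0.0276, adjusted p = 0.61, and 0.73 without shLuc #1). Psmd1 is 1 of 13 members whose exons overlap another annotated gene, 10 of them with a gene on the opposite strand (Psmb7, Psmc3ip, Psmd3, Psmd9, Psmd13 and Psme1 among those given with values), and whether reads were counted by strand is not given in the sources used here. Psmd12, of the lid, had 115, 108, 168 and 252, without overlap (0.88 ± 0.36, unadjusted p = 0.0486, adjusted p = 0.651).

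Psmd4, a ubiquitin receptor and the most abundant of this class, had 439, 469.9, 588 and 622, without overlap (0.41 ± 0.28, adjusted p = 0.776). Psmd11, a lid subunit, had the lowest statistic, with 307, 300.1, 249 and 274, both CTCF-KD cultures being below both WT cultures (-0.22 ± 0.30, adjusted p = 0.894), whereas on the mean of log2(TPM + 1) its difference was 0.065. Psmd13, the least abundant, had 43.3, 61.3, 86.9 and 40.8, with opposite directions in the experiments. Of 11 genes, 6 were above and 1 below, and the median log2 difference was 0.34. Among all genes tested, 19.9% were above and 16.9% below. The 17 members of the 19S particle, ATPase and non-ATPase, had 10 above and 1 below with a median of 0.40, and the 20S core had 7 of 15 above and 1 below with a median of 0.46.

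**Figure D2:**
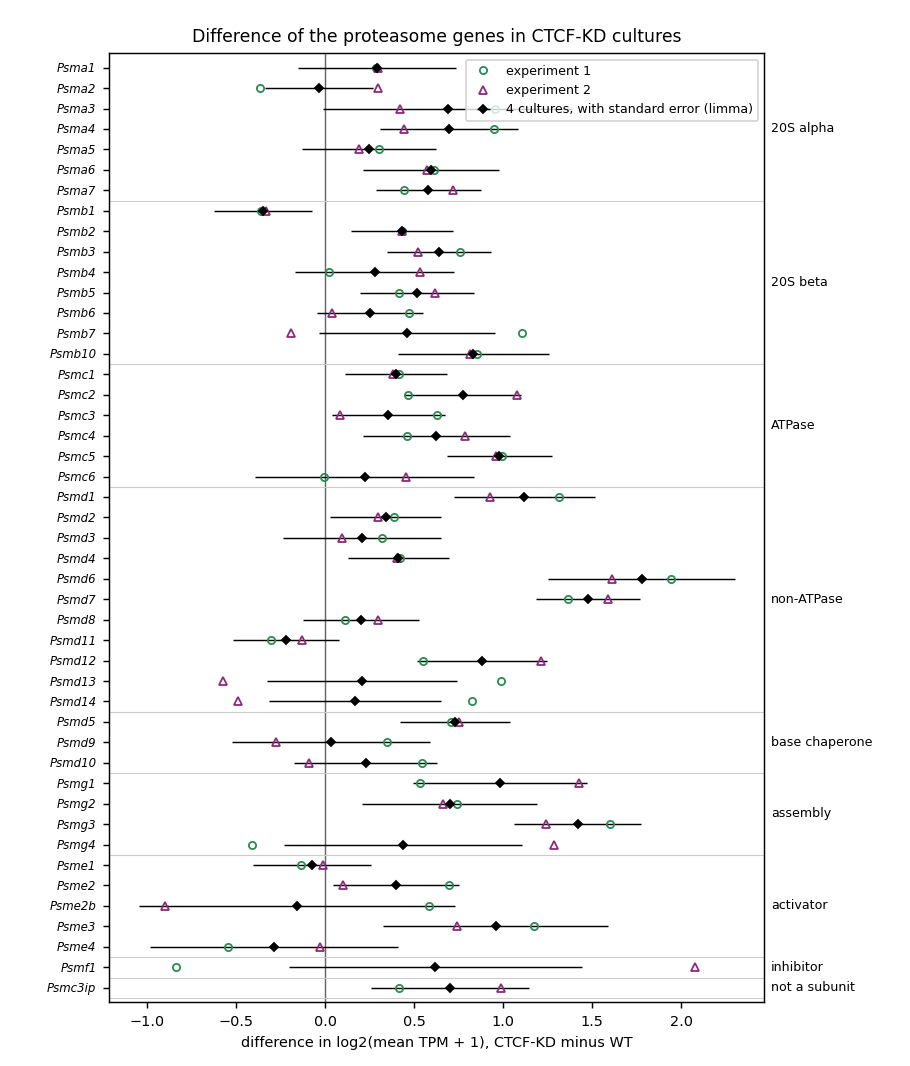
Difference in log2(mean TPM + 1), CTCF-KD minus WT, of each member, with the standard error of limma over 4 cultures (diamonds) and the value within each experiment (open symbols). Psmd6, Psmd7 and Psmg3 have the largest differences over the 4 cultures (1.78, 1.48 and 1.42), and Psmb1, Psmd11, Psme1 and Psme4 are left of 0 in both experiments.

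Psmd5, Psmd9 and Psmd10 belong to chaperones that hold the ATPases while the base is built and leave before it is complete. Psmd5 had mean TPM of 163, 177, 267 and 298, without overlap (log2 difference 0.73 ± 0.31, adjusted p = 0.656). Psmd9 had 24.1, 41.6, 30.9 and 34.1, and Psmd10 had 83.8, 140.4, 123 and 132, and both overlapped, with opposite directions in the experiments.

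The 4 Psmg genes encode factors that help the alpha ring assemble. Psmg3 had mean TPM of 114 and 99.2 in the WT cultures and of 347 and 236 in the CTCF-KD cultures, 3.05 times the control in experiment 1 and 2.37 times in experiment 2 (log2 difference 1.42 ± 0.36, unadjusted p = 0.00624, adjusted p = 0.585). It had reads in 9 of 24 and 10 of 23 WT cells and in 22 and 20 of 24 CTCF-KD cells. On the mean of log2(TPM + 1) its difference was 4.19 (limma, adjusted p = 0.0468), the call named above. After adjustment for genes detected it was 2.92 on that scale, and 0 members were then called. Exons of Psmg3 overlap a predicted gene on the same strand. Psmg1 had 39.9, 25.9, 58.2 and 71.5, without overlap (0.98 ± 0.49, adjusted p = 0.696). Psmg4 had 91.8, 24.3, 68.8 and 60.8, and overlapped. The median log2 difference of the 4 genes was 0.84, with 2 above (19.9% of all genes tested) and none below (16.9%).

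The activators open the core without the 19S particle, and here the pattern differed from gene to gene. Psme1, a subunit of the interferon-inducible cap, had mean TPM of 374, 273, 340.4 and 271, with log2 differences of -0.13 in experiment 1 and -0.01 in experiment 2. Psme3, the nuclear activator, had 24, 64.8, 55.3 and 109, higher than the control in either experiment but overlapping across them (0.96 ± 0.63, adjusted p = 0.775), and with a log2 difference of 0.26 without shLuc #1 and of 1.66 without shLuc #2. Psme4, the large nuclear activator, had 35.8, 77, 24.2 and 75.4.

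Psme2b, a near-copy of Psme2, had 1.99, 0.868, 3.47 and 0 and reads in 6, 2, 8 and 0 cells. The authors kept uniquely mapped reads, so reads matching both genes could be missing from either. Psmf1, an inhibitor of the core, had 54.3, 11.3, 30 and 50.8, with log2 differences of -0.84 in experiment 1 and 2.08 in experiment 2. The median of the 5 activators was -0.07, and 1 of them (Psme2) was above in both CTCF-KD cultures (19.9% of all genes tested). Psmc3ip, which is no subunit, had 43.8, 37.9, 58.8 and 76, without overlap (0.70 ± 0.45, adjusted p = 0.775).

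Summed over the 46 members, TPM per cell had a mean of 12151 ± 2785 (SD over 24 cells) and 13146 ± 3370 (23 cells) in the WT cultures. In the CTCF-KD cultures it was 16290 ± 2380 and 17400 ± 3724 (24 cells each). The 46 members thus took 1.22% and 1.31% of the TPM in WT cultures and 1.63% and 1.74% in CTCF-KD cultures. The ratio was 1.34 in experiment 1 and 1.32 in experiment 2. Both CTCF-KD cultures were above both WT cultures, for which the exact permutation test, two-sided, gives p = 0.333, the smallest that 2 cultures per condition allow. For the 20S core the ratios were 1.26 and 1.24, and for the 19S subunits 1.5 and 1.46.

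Single cells overlapped between conditions. The lowest summed TPM was 6882 and 7409 in the WT cultures and 12572 and 2619 in the CTCF-KD cultures, the last in the cell that stood apart. Without that cell, the mean of shCTCF #2 was 18043 ± 2034 over 23 cells and its lowest value 14721. The counts of 22 members above and 2 below were the same without it. Without Psmb6, the most abundant member, the ratio of the sums over both experiments was 1.34 and with it 1.33. Within a culture, the sum and the number of genes detected had Spearman correlations of 0.15, 0.04, 0.15 and 0.46 over 24, 23, 24 and 24 cells that share their culture and circuit, given as a description.

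**Figure D3:**
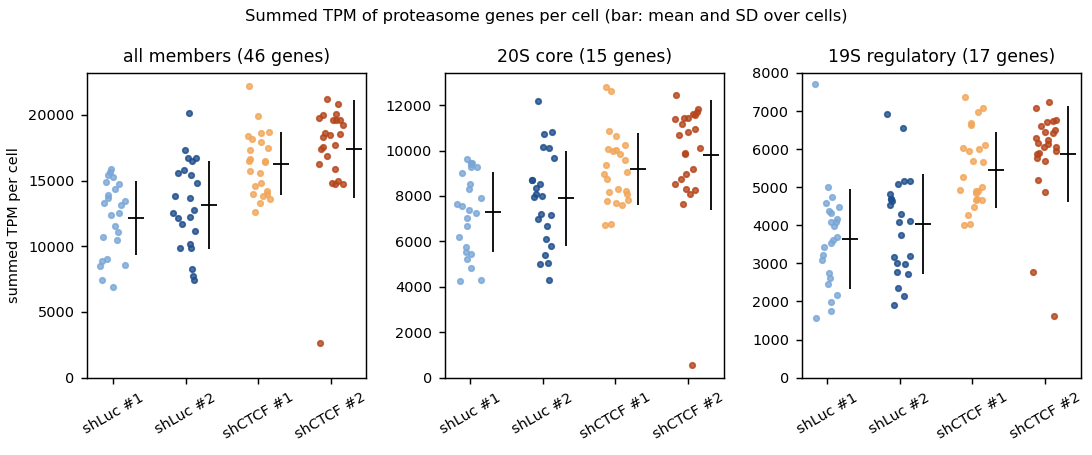
Summed TPM per cell of all 46 members, the 15 members in the 20S core and the 17 in the 19S particle. Points are cells and bars the mean and SD over cells of a culture. For all members, the medians are 12838 and 12757 in the WT cultures and 16418 and 18410 in the CTCF-KD cultures, and 1 shCTCF #2 cell lies near the bottom.

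Detection followed a like order. After thinning, the median over members of the share of cells with reads was 83.3% and 82.6% in the WT cultures and 97.9% and 100% in the CTCF-KD cultures. The share was higher in both CTCF-KD cultures than in both WT cultures for 32 of 46 members (69.6%), against 38.9% of all genes tested, and lower for 0, against 4.81%. The median difference was 12.7 percentage points for members and 6.34 for all genes. Members and all genes were not matched for level here, with medians of 264 and 17.2 mean TPM. Most core subunits were near their ceiling, and the core had medians of 95.8%, 95.7%, 100% and 100%. Assembly factors had 39.6%, 30.4%, 62.5% and 73.9%.

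Psmg3 was detected after thinning in 29.2% of cells of shLuc #1 (exact 95% binomial interval 12.6% to 51.1%), 34.8% of shLuc #2 (16.4% to 57.3%), 91.7% of shCTCF #1 (73% to 99%) and 87% of shCTCF #2 (66.4% to 97.2%). Psmd6 was detected in 50%, 65.2%, 95.8% and 100%, and Psmb10 in 45.8%, 39.1%, 70.8% and 87%. These intervals cover the sampling of cells within 1 culture alone, and not differences between cultures or circuits. Reads without molecular identifiers are also not independent molecules.

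**Figure D4:**
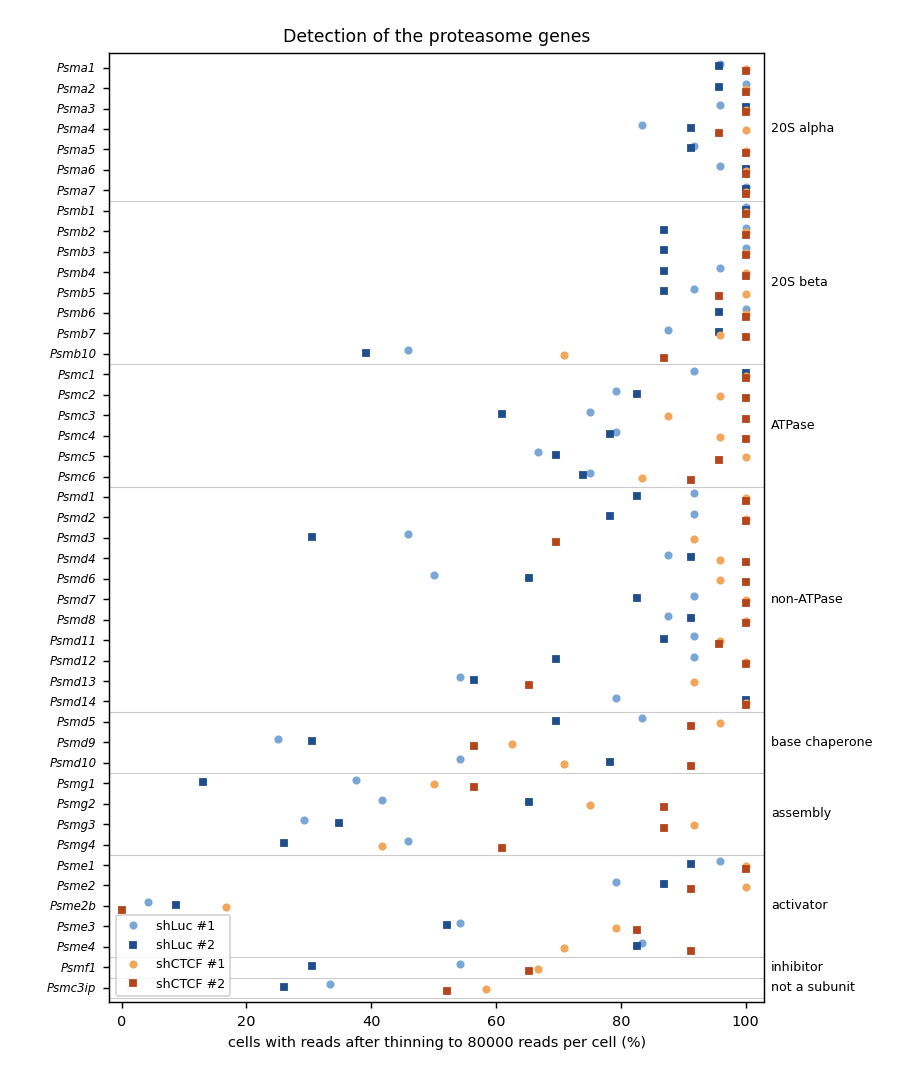
Share of cells with reads of each member after thinning to 80000 reads per cell, in the 4 cultures. Core subunits other than Psmb10 crowd toward the right edge in every culture. Psmg3, Psmd3, Psmd6 and Psmb10 show both CTCF-KD cultures to the right of both WT cultures.

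Cell-to-cell variation was measured by the coefficient of variation (CV) of log2(TPM + 1), that is its SD divided by its mean across the pooled cells of a condition. A CV of log values falls when the mean rises at the same SD, and SDs of the log values are therefore given too. The CV was lower in CTCF-KD than in WT cells for all 45 members tested, as it was for 81.5% of all 7843 genes, and for 44 of them the mean log value was higher. The median CV of the members was 0.457 in WT cells and 0.192 in cells with the knockdown, against 1.07 and 0.801 over all genes. The median SD of the log values was 2.63 and 1.66 for members and 2.53 and 2.31 for all genes, and the median CV difference was -0.24 for members and -0.22 for all genes. By the rule of the study, a difference beyond 1 SD of the mean difference, 2 members were decreased (4.44%, against 11.3% of all genes) and 0 were increased (7.68% of all genes). A decrease required a CV difference below -0.685. Since a CV cannot fall below 0, a gene whose WT CV was smaller than that limit in size could not be called decreased. The median WT CV of members lay under it and that of all genes above it, so these shares are not like for like.

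The 2 decreased members were Psmd3, a lid subunit, and Psmg3. The CV of Psmd3 was 1.17 and 1.53 in the WT cultures and 0.424 and 0.73 in the CTCF-KD cultures, with SDs of the log values of 3.37, 3.28, 2.23 and 2.93. For Psmg3 it was 1.43 and 1.22 in WT and 0.325 and 0.486 in CTCF-KD, with SDs of 3.83, 3.805, 2.49 and 3.165. Neither overlapped. Psmd3 had mean TPM of 63.2, 51, 79.1 and 54.5, so that its mean TPM overlapped while it had reads in 12, 8, 22 and 17 cells. Psmd3 was decreased in experiment 2 taken alone and Psmg3 in experiment 1 taken alone.

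By limma on the CV of each culture, 5 members were lower in CTCF-KD (11.1% of members, against 4.14% of all 7823 genes) and 0 were higher (0.0639% of all genes). They were Psmd6, Psmc5, Psmd1, Psmg3 and Psmd8. With the experiment as a block, 22 members were lower (48.9%, against 19.9% of all genes) and 0 higher (0.307%). Without shLuc #1 the count was 11 (8.35% of all genes), without shLuc #2 it was 4 (2.25% of all genes), and without either CTCF-KD culture it was 0, as it then was for all genes. In these fits the lone culture is assumed to vary like the other condition.

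Psmd6 had a CV of 0.892 and 0.721 in the WT cultures and of 0.158 and 0.103 in the CTCF-KD cultures (difference -0.68 ± 0.10 standard error, limma adjusted p = 0.0359), with SDs of the log values of 3.15, 3.6, 1.19 and 0.877. Psmc5 had 0.746, 0.661, 0.167 and 0.266 (-0.49 ± 0.09, adjusted p = 0.0363), with SDs of 3.86, 3.65, 1.36 and 2.14. Psmd1 had 0.439, 0.532, 0.117 and 0.124 (-0.37 ± 0.06, adjusted p = 0.0363), with SDs of 2.29, 2.96, 0.893 and 0.976. In these 3 genes the log values of CTCF-KD cells lay closer to a common level than those of WT cells, and the level was higher. Fewer CTCF-KD cells were without reads of them, and the part of this in the SD of log values was not tested. On TPM the SD was larger in CTCF-KD within either experiment, for Psmd6 93.6, 148, 147 and 246.5.

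Psmd8, a lid subunit, had 0.337, 0.327, 0.1065 and 0.124 (-0.22 ± 0.05, adjusted p = 0.0481), with SDs of 2.61, 2.37, 0.908 and 1.016, although its mean TPM of 396, 286, 427 and 351 overlapped between conditions. The CV of Psmb1 hardly differed, at 0.102, 0.0883, 0.0694 and 0.114 (-0.0033 ± 0.039, adjusted p = 0.968), with SDs of 0.955, 0.829, 0.632 and 1.028. On TPM without log, the CV of 39 of 45 members was lower in both CTCF-KD cultures than in both WT cultures (86.7%, against 49.1% of all genes) and of 0 members higher (5.02% of all genes). Psmd6, for example, had CVs of TPM of 1.54, 1.046, 0.623 and 0.568. The shares of all genes given for CV are not matched for level. The median of mean TPM was 264 for members and 36.7 for the genes of the CV rule.

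**Figure D5:**
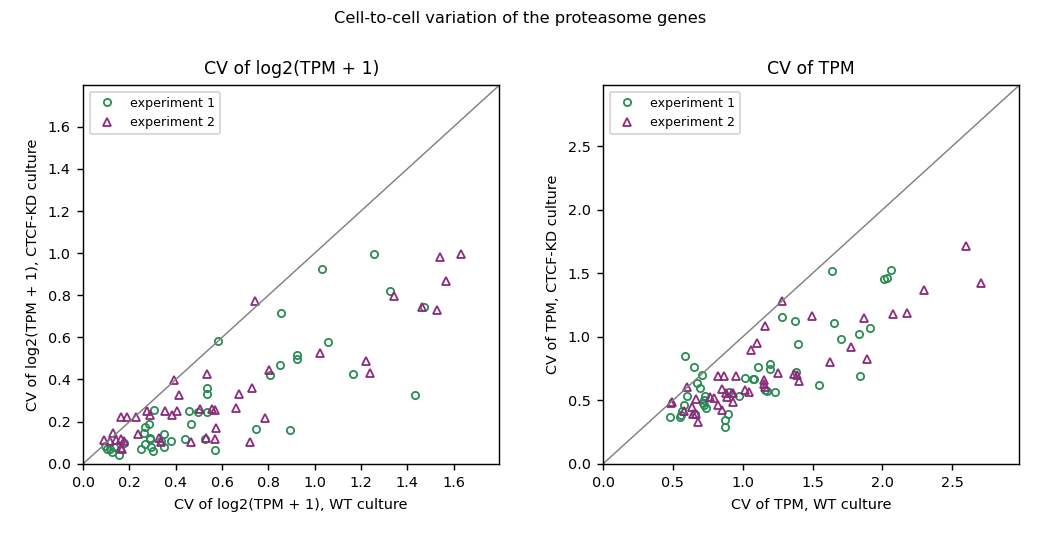
CV of each member in a CTCF-KD culture against the WT culture of the same experiment, on log2(TPM + 1) (left) and on TPM (right). The line marks equal values, and most points of either experiment lie under it.

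Of 33 genes listed as working with the proteasome, 32 were in the table and tested. By mean TPM, 5 were above in both CTCF-KD cultures (15.6%, against 19.9% of all genes) and 1 was below (3.12%, against 16.9%). At the adjusted threshold 0 passed, and at an unadjusted p under 0.05 there was 1 higher (3.12%, against 4.79%) and 0 lower (2.82%). Adrm1, the ubiquitin receptor of the 19S base that is no Psm gene by name, had 45.1, 24.7, 122 and 74.7 (log2 difference 1.49, unadjusted p = 0.0258, adjusted p = 0.61). Shfm1 (Sem1), a lid subunit that also has no Psm name, had 2030, 1168, 1829 and 1086, and overlapped (-0.13, adjusted p = 0.965). Pomp, the chaperone of beta-ring assembly, had 740.1, 821, 869.9 and 810.5, and overlapped. The transcription factor Nfe2l1, known to raise proteasome genes when proteolysis is impaired, had 63.8, 22.5, 27.1 and 20.9, and its relative Nfe2l2 had 73.2, 70.4, 41.3 and 80.2. Akirin2, known for nuclear import of proteasomes, was the one below, with 5.67, 9.40, 1.85 and 1.06 (adjusted p = 0.692). These values rest on 31, 34, 9 and 3 reads in 9, 5, 5 and 3 cells.

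The immunoproteasome subunits Psmb8 and Psmb9 had 1163, 1063, 1338 and 715 and 615, 671, 822 and 483, and both overlapped between conditions. TPM is a value per length, so the ratio of each to the constitutive subunit it replaces can be read within a culture. Psmb8 over Psmb5 was 4.34, 5.23, 3.74 and 2.29, Psmb9 over Psmb6 was 0.61, 0.656, 0.589 and 0.461, and Psmb10 over Psmb7 was 0.399, 0.101, 0.335 and 0.203. The first 2 ratios were lower in both CTCF-KD cultures than in both WT cultures, and the third overlapped.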

How the data were processed

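Single cells of 4 EL4 cultures were captured on the Fluidigm C1 system. The authors mapped reads with STAR to GRCm38 and deposited TPM of 24057 genes in 96 cells, before any filter on cells. TPM corrects for the length of a gene and for the sum over each cell. Members, gene lists and tests were chosen with earlier results of these data known. From TPM, whole reads were worked back as each gene's common step across cells (100% of 504524 values within 0.001 of a whole number) and served for depth and for thinning to 80000 reads. No count model was fitted, since the design was written for TPM. Depth was lowest in shCTCF #2 (3232422 reads, against 5493040 to 6192121 in the others), so single values are least precise there.

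Expression was tested by limma 3.58.1 (R 4.3.3, trended prior) on culture values of log2(mean TPM + 1), for genes exceeding 1 on the log2(TPM + 1) scale in 2 or more cells, with a pseudocount of 1 and Benjamini-Hochberg adjustment at 0.05. P-values rest on the spread between 2 cultures per condition, drawn by the trended prior toward that of genes of like level. The culture number is the experiment in the study's methods and so pairs the samples. Deviations of same-numbered cultures correlated at 0.275 over 7843 genes. CV used genes with a mean log2(TPM + 1) above 1. Named with values are the catalytic subunits, the members of each class with the highest and lowest statistic and mean, those given apart, those called in variation in both experiments alone or on the other scale, and, after their values were seen, Psmc2, Psmd1, Psmd3, Psmd6, Psmd8, Psmd12 and Psmd14. Coordinates are GENCODE M21 and RefSeq of GRCm38. Scripts were tested on simulated data. Values of some genes that work with the proteasome are not reported here.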

Additional observations from a re-analysis of the deposited data

How the results depend on the processing

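Without the cell under 80000 reads, 22 members were above and 2 below, as with it. The median log2 change of members (0.43) was 1.14 on the culture mean of log2(TPM + 1) of single cells and, on that scale, 0.519 after adjustment for genes detected. It was 0.41 with a pseudocount of 10, 0.46 with all 96 cells and likewise (0.465) without cells under 80000 reads, 0.48 on recovered reads (RPM), and 0.30 to 0.56 without 1 culture, always above the median of all genes. With the replicate block it was 0.43. Calls in expression went from 0 to 1 on the mean of log2(TPM + 1) and stayed 0 otherwise. CV calls (2 decreased) were 1 without log (11.8% of all genes), 17 or 37.8% with a pseudocount of 10 (13.9%), 6 or 13.3% with a minimum in both conditions (14.6%), 1 in experiment 1 alone (11%), 5 or 11.1% for CV above that expected from the mean (8.62%), and 1 to 3 without 1 culture (10.3% to 11.6%). Calls in the CV of cultures (5 lower) were 22 with the replicate block and 0 to 11 without 1 culture. The replicate block changed no other call. The detection difference (12.7 points) was 8.61 not thinned, 10.9 at TPM above 10 and 10.3 to 13 without 1 culture. The added settings, chosen after seeing the data, are CV above expectation, leaving out cells under 80000 reads, and leaving out cultures for sums and detection. The cause of these moves was not tested.

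Of 35 named members, 18 had the same direction in every setting run. Reversed log2 changes on the mean of log2(TPM + 1) were 0.15 for Psma2, 0.065 for Psmd11, 0.41 for Psme1, 0.031 for Psme2b and 0.61 for Psme4. With a pseudocount of 10, Psme2b was at 0.024, and on RPM Psma2 was at 0.045. On the mean of log2(TPM + 1) adjusted for genes detected, Psmb6 was at -0.17, Psmd13 at -0.38, Psme1 at 0.38, Psme2b at 0.15, Psme4 at 0.14, Psmf1 at -0.26 and Psmg4 at -0.085. Without 1 culture, ranges were -0.23 to 0.16 for Psma2, -0.22 to 1.60 for Psma3, -0.27 to 1.19 for Psmb7, -0.55 to 0.99 for Psmc6, -0.057 to 0.47 for Psmd3, -0.034 to 0.44 for Psmd8, -0.35 to 0.42 for Psmd9, -0.14 to 0.60 for Psmd10, -0.33 to 0.74 for Psmd13, -0.53 to 0.87 for Psmd14, -0.30 to 0.15 for Psme1, -1.24 to 0.92 for Psme2b, -1.09 to 0.51 for Psme4, -0.47 to 1.71 for Psmf1 and -0.50 to 1.37 for Psmg4.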
